A study of Mus musculus with 15 samples.

Results

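The splicing factors and heterogeneous nuclear ribonucleoproteins (hnRNPs) of mouse liver were taken by gene name from the deposited count table, as the protein-coding genes whose symbols begin with Srsf and a digit, Hnrnp, Sf3a or Sf3b, Snrp or Prpf. The rule gave 65 of the 35275 genes in the table: 11 Srsf, 20 Hnrnp, 9 Sf3, 12 Snrp and 13 Prpf genes. The RNA came from whole left lateral liver lobe of C57BL/6 mice that were 3 months old at the start and 6 months old at the end of 3 months of feeding. One group fed ad libitum (AL), another was fasted intermittently for 16 h (IF16) and the remaining group was fasted for 24 h every other day (EOD), with 5 libraries in each. Mice were assigned to the groups at random, and no genetic change or drug is named for any group. The labels give neither the time between the last meal and tissue collection nor which animal each library came from, so the p-values below measure the spread between these libraries, part of which may be technical.

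Removal of introns is carried out by the spliceosome, which assembles on each intron from small nuclear ribonucleoproteins (snRNPs) and accessory proteins. The Snrp genes encode the Sm proteins that form a ring on each snRNA and proteins particular to single snRNPs, the Sf3 genes encode the subunits of the U2 snRNP that hold the branch point, and the Prpf genes encode proteins of the tri-snRNP and of the catalytic centre. Srsf proteins bind exons through RNA recognition motifs and recruit the machinery through arginine- and serine-rich tails, whereas hnRNPs coat nascent transcripts and often oppose exon inclusion. Liver genes are widely spliced in alternative forms, and several hnRNPs also act on the stability of mRNA in the cytoplasm.

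Sequencing depth was 28129883 to 33383641 counts per AL library, 31362642 to 38147534 per IF16 library and 29581097 to 37802749 per EOD library. Hepatocyte transcripts dominated every library, with Alb at 58206 to 100593 CPM (counts scaled to library size). Some libraries stood apart. In AL replicates 4 and 5 the summed level of 11 acute-phase genes reached 24828 and 38739 CPM, while the other AL libraries had 6833 to 7426 CPM. In this pair, 49 of the 63 tested members had a higher mean than in the rest of the AL group. This count was not made over all genes, so it is not shown to be particular to the members. EOD replicate 5 had 10.1% of its counts on mitochondrial genes, whereas the other EOD libraries had 5.34% to 6.83%. The AL libraries had 10.01% to 15.1% and the IF16 libraries 8.98% to 11.5%. The summed level of 7 sinusoidal endothelial markers was 87.0 to 144 CPM in AL, 170 to 181 CPM in IF16 and 157 to 199 CPM in EOD. None of the 7 was absent from a whole group, and against AL 5 were called higher in EOD and 4 in IF16. Of all genes tested, 17.6% were called higher and 17.6% lower in EOD than in AL. In IF16 against AL these shares were 1.4% and 2.1%. Of 6 stellate cell markers, none at 0 in a whole group, 2 were called higher (Dcn and Reln) and 1 lower (Col1a1) in EOD than in AL, with a median log2 fold change of 0.06, and their sum of 106 to 184 CPM in AL and 169 to 256 CPM in EOD was mostly Dcn, at 83.4 CPM in AL and 154 CPM in EOD on average. The summed level of 5 neutrophil markers was 2.61 to 35.3 CPM in AL and 2.00 to 5.83 CPM in EOD, where Ly6g was at 0 in every library. All 3 with enough reads to test were called lower in EOD than in AL, and 1 was called lower in IF16 than in AL. The neutrophil sum had a median of 3.80 CPM in AL and 2.70 CPM in EOD. The high end of the AL range thus came from a minority of its libraries. These neutrophil calls are not given here without AL replicates 4 and 5. The part of these markers in the results was not tested. In whole-tissue RNA, fewer cells of a type and less RNA per cell cannot be told apart.

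The members were moderately to highly expressed in liver. Levels between genes are given in FPKM, fragments scaled to gene length and library size, as means over all 15 libraries. The 63 members with enough reads to test had a median of 11.2 FPKM, and 57 of them lay above the median of the 13837 genes tested. Among the Sm ring genes, Snrpd2 stood at 117 FPKM, Snrpg at 61.6 FPKM, Snrpe at 44.0 FPKM, Snrpb at 24.8 FPKM, Snrpd3 at 22.6 FPKM and Snrpd1 at 19.6 FPKM. Snrpf, the remaining gene of the ring, was at 0.0503 FPKM, with 20 reads over the 15 libraries, and Srsf12 was at 0.0118 FPKM with 16 reads. These were the only members below the filter, and no fold is given for either. Why the table holds so few reads for Snrpf beside its partners was not tested. The highest hnRNP genes were Hnrnpa2b1 at 62.7 FPKM and Hnrnpk, a binder of cytosine-rich RNA, at 57.2 FPKM, and the lowest was Hnrnpr at 1.79 FPKM. Srsf5 led the Srsf genes at 47.4 FPKM, followed by Srsf2 at 29 FPKM, with Srsf4 lowest of those tested at 1.97 FPKM. Sf3b6 and Sf3b2 were at 22.7 and 20.2 FPKM and Sf3a1 at 2.84 FPKM, and Prpf19 and Prpf8 were at 14.8 and 13.1 FPKM with Prpf38a at 1.44 FPKM. The lowest tested snRNP gene was Snrpn at 2.91 FPKM.

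**Figure D1:**
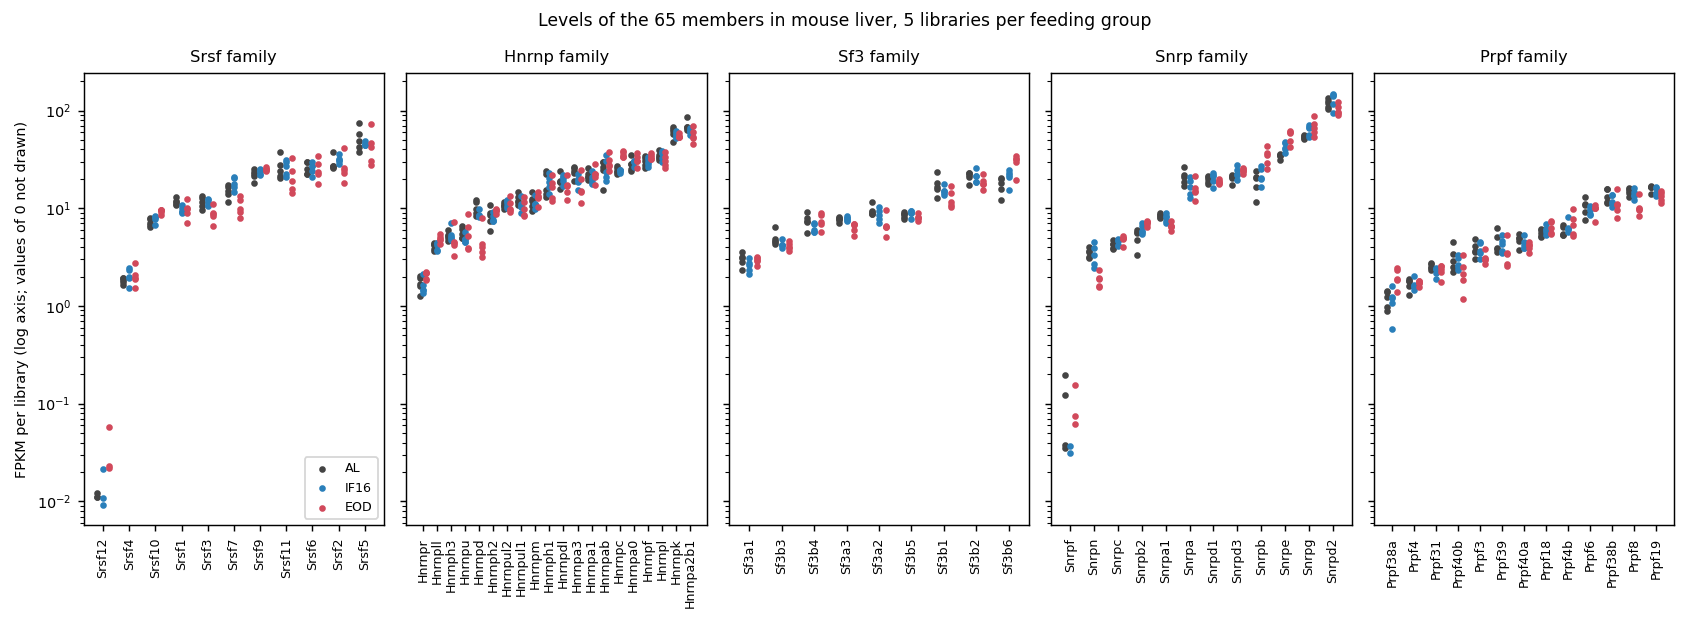
FPKM of each member in each library (points, coloured by feeding group) on a log axis, 1 panel per family, with values of 0 not drawn. Snrpd2, with a mean of 117 FPKM, is the highest member, and Snrpf and Srsf12 lie far below all others.

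The summed level of the members was close in the 3 feeding groups. It was 1121 ± 50.2 FPKM (SD, n = 5) in AL, 1126 ± 29.96 in IF16 and 1104 ± 78.8 in EOD, differences smaller than the spread between libraries. By family the summed FPKM of the Snrp genes was 307 ± 11.4 in AL, 339 ± 36.1 in IF16 and 338 ± 32.2 in EOD, and that of the Prpf genes was 88.0 ± 5.06, 83.3 ± 3.70 and 76.6 ± 10.6. The Srsf genes summed to 203 ± 29.3, 202 ± 12.2 and 183 ± 45.1 FPKM, the Hnrnp genes to 426 ± 36.4, 406 ± 18.4 and 410.1 ± 36.8 FPKM, and the Sf3 genes to 96.9 ± 8.26, 95.9 ± 4.60 and 96.6 ± 3.06 FPKM. The libraries of the 3 groups overlapped in every family, and the Srsf sum was most scattered in EOD, from 135 to 254 FPKM.

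The comparison of IF16 with AL asked whether fasting for 16 h changed these genes, and no member was called. At an adjusted p below 0.05 (edgeR quasi-likelihood test, Benjamini-Hochberg over all genes tested), 0 of 63 members passed, where 3.5% of all genes tested did (1.4% higher and 2.1% lower). DESeq2 and limma also called 0 members, and 2 members had an unadjusted p below 0.05 with edgeR. These were Snrpe (log2 fold change 0.32 ± 0.13 SE, adjusted p = 0.187) and Srsf1 (log2 fold change -0.26 ± 0.11 SE, adjusted p = 0.19), the latter singled out after its values were seen. The median log2 fold change over the members was -0.01, with a range of -0.31 to 0.32. The median size of the change was 0.11 against 0.18 over all genes, with no match on expression level. The other members with the largest change in their family were Hnrnpa3 at -0.31 (adjusted p = 0.269), Sf3b6 at 0.29 (adjusted p = 0.421), Srsf7 at 0.29 (adjusted p = 0.317) and Prpf31, a tri-snRNP protein, at -0.17 (adjusted p = 0.447). No member had IF16 libraries wholly above or below the AL libraries, against 5.78% of all genes.

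In EOD against AL, 19 of 63 members (30.2%) changed, 7 higher and 12 lower, where 35.2% of all genes tested changed, 17.6% in each direction. The share of members called was therefore near that of the genome, and what follows describes which members moved. Those higher in EOD were Snrpb, Sf3b6, Prpf38a, Snrpe, Hnrnpc, Snrpb2 and Srsf10, by 1.31-fold to 1.83-fold. Those lower were Hnrnpd, Snrpn, Prpf8, Srsf7, Sf3a2, Hnrnpa3, Sf3b1, Srsf3, Snrpa1, Hnrnpa2b1, Sf3a3 and Prpf19, by 1.21-fold to 2.22-fold. The median log2 fold change over the members was -0.11 with all libraries, -0.06 without EOD replicate 3 and -0.01 without AL replicates 4 and 5, against -0.01 over all genes with all libraries. In 8 members (12.7%) the EOD and AL libraries did not overlap, against 18.6% of all genes.

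The balance of rises and falls rested on which libraries were used. Without AL replicates 4 and 5 there were again 19 called members, but 13 were higher and 6 lower, with 30.3% of all genes called. Of the falls, 6 were no longer called (Hnrnpa2b1, Hnrnpa3, Prpf19, Sf3a3, Sf3b1 and Srsf7) and 6 rises were called in their place (Hnrnpa0, Hnrnph2, Hnrnpll, Hnrnpm, Snrpd3 and Srsf9). The split of all genes into rises and falls without AL replicates 4 and 5 is not given here. The shift is therefore not shown to be particular to the members. Without EOD replicate 3, the library with the lowest share of counts on the members at 0.248%, there were 13 called members, 7 higher and 6 lower, the same 6 falls being lost, with 28% of all genes called. Without EOD replicate 5, whose value was the nearest of the EOD libraries to the AL mean in 15 of the 19 called members, there were 30 called members, 14 higher and 16 lower, with 41% of all genes called. Sf3a3 lost its call under 12 of the 25 alternatives run, Prpf19 and Sf3b1 under 9 each and Hnrnpa2b1 under 6. Hnrnpa3 lost it under 3 and Srsf7 under 2. The remaining 13 calls, 7 higher and 6 lower, were kept under each of the 25 alternatives.

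**Figure D2:**
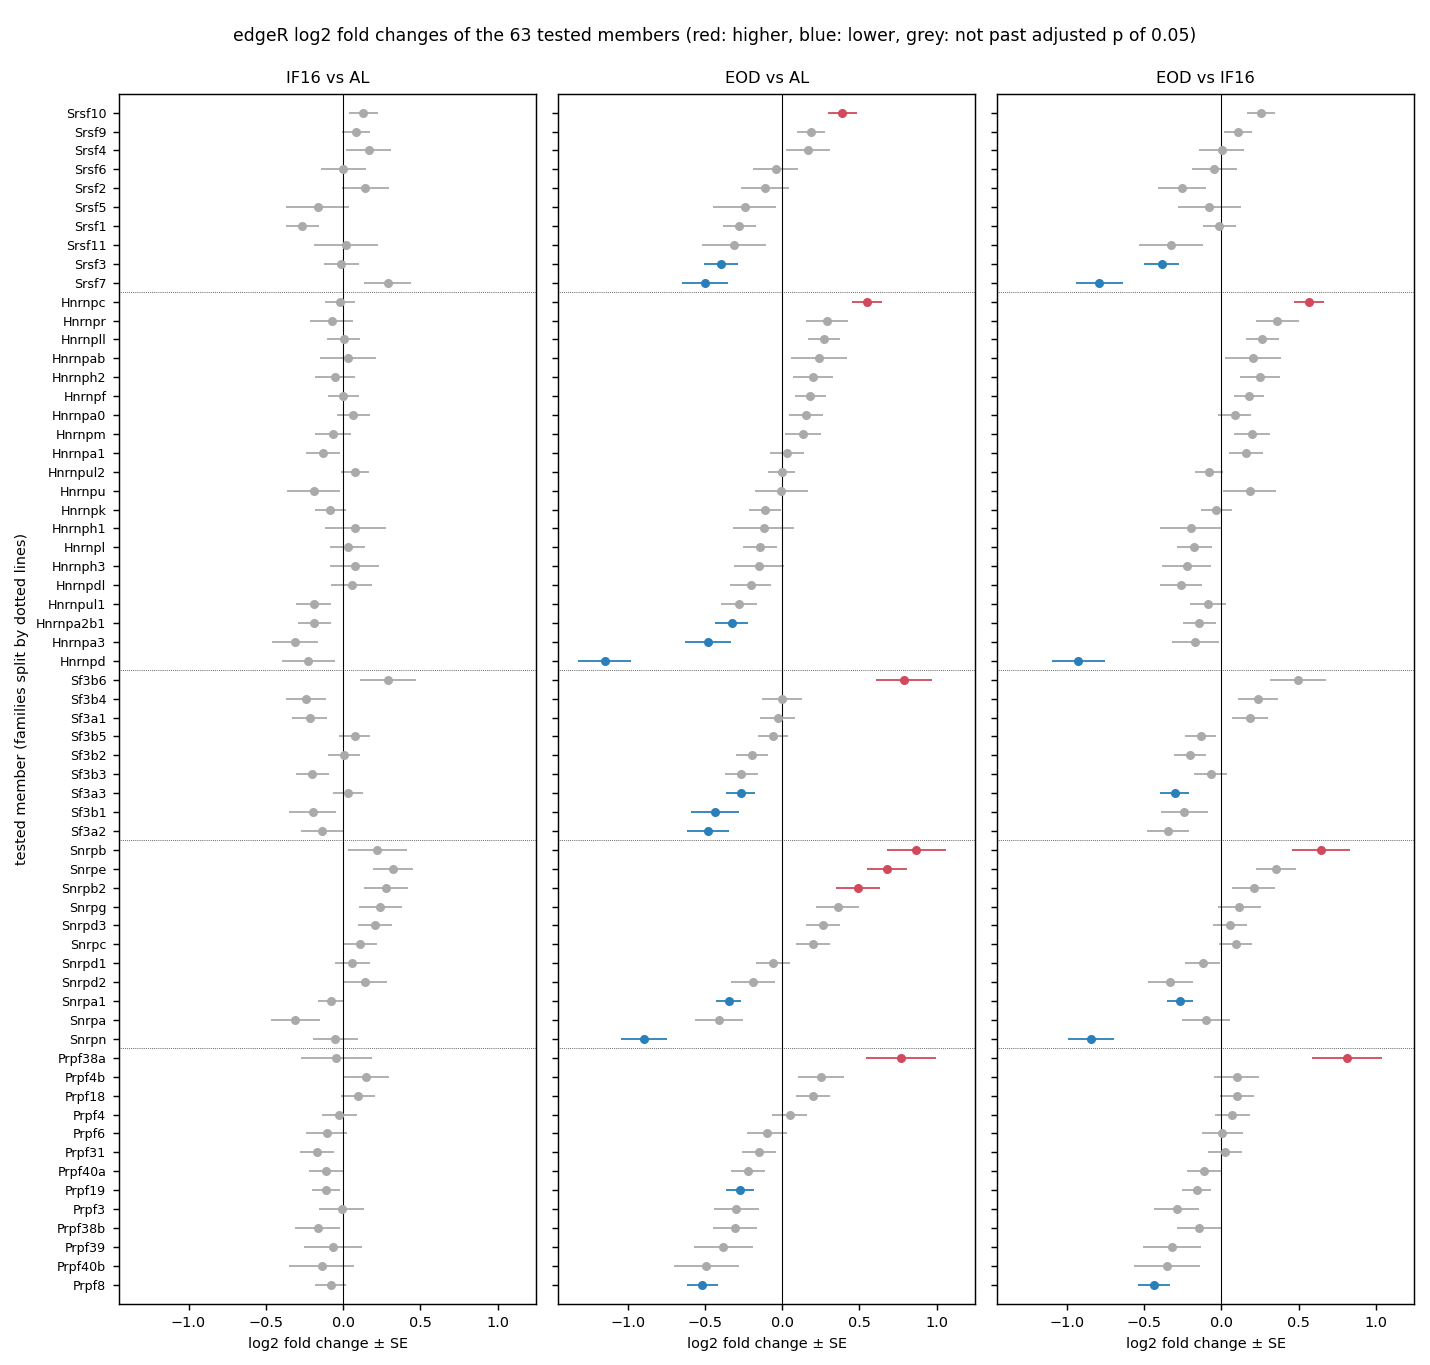
Log2 fold change (x axis, bars are ± SE) of the 63 tested members (y axis, by family) in IF16 against AL, EOD against AL and EOD against IF16, with members past the threshold in red (higher) and blue (lower). In EOD against AL the members run from -1.15 (Hnrnpd) to 0.87 (Snrpb), and in IF16 against AL all are grey and lie between -0.31 and 0.32.

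**Figure D3:**
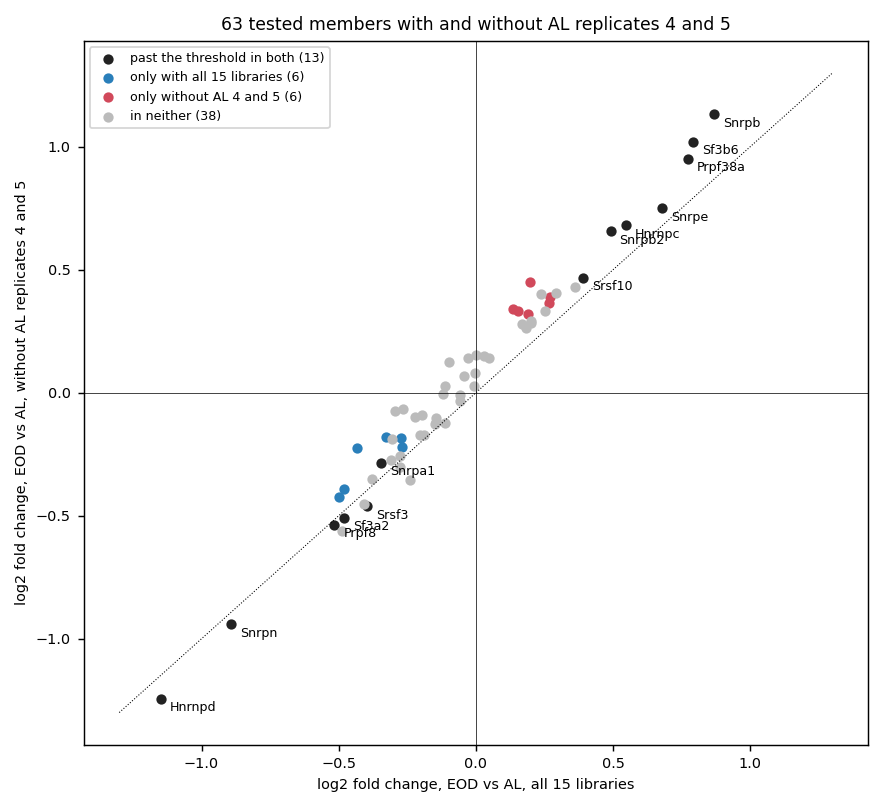
Log2 fold change of the tested members in EOD against AL with all libraries (x axis) and without AL replicates 4 and 5 (y axis), with the calls of each fit marked. Most points lie above the dotted line of equal values, 13 members (black, named) are called in both fits, 6 falls (blue) only with all libraries and 6 rises (red) only without the pair.

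Promoter sequences are shown for 6 of the changed members to set those that rose beside those that fell. They are the 3 largest rises and the 3 largest falls among called members with 1 start in the RefSeq promoter table (GRCm38.p6, coordinates as in mm10) within 100 bases of the start in the count table. Each run is the 250 bases upstream of the start, 5′ to 3′ on the gene's own strand. Sf3b6, Prpf38a and Snrpe rose, and Hnrnpd, Prpf8 and Srsf7 fell. The windows are Sf3b6 at chr12:4817358-4817607 on the plus strand, Prpf38a at chr4:108579337-108579586 on the minus strand, Snrpe at chr1:133610281-133610530 on the minus strand, Hnrnpd at chr5:99978939-99979188 on the minus strand, Prpf8 at chr11:75486527-75486776 on the plus strand and Srsf7 at chr17:80207306-80207555 on the minus strand. Capitals mark matches on either strand to a CCAAT box (CCAAT), a GC box (GGGCGG, the core bound by Sp proteins), an ETS core (CCGGAAG), an NRF1 core, an E-box (CACGTG) or a cyclic AMP response element (TGACGTCA).
Sf3b6: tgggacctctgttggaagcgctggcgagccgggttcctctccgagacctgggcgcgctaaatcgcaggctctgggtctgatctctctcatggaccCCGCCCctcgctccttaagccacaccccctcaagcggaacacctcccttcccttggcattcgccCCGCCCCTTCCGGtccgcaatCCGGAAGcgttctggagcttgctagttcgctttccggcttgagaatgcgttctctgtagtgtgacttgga
Prpf38a: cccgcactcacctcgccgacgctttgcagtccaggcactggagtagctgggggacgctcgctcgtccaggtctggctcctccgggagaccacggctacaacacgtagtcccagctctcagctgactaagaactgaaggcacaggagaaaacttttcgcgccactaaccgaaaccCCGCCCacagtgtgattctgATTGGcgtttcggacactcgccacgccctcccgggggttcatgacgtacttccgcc
Snrpe: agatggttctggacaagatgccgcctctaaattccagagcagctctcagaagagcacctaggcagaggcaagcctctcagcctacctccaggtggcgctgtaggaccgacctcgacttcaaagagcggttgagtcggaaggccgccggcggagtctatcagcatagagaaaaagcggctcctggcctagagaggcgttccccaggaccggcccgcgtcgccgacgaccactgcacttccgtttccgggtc
Hnrnpd: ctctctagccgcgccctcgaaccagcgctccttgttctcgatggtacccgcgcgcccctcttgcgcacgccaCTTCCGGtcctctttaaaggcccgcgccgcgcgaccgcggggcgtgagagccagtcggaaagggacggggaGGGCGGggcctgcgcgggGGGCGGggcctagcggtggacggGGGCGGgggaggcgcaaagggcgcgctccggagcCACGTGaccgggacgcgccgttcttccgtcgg
Prpf8: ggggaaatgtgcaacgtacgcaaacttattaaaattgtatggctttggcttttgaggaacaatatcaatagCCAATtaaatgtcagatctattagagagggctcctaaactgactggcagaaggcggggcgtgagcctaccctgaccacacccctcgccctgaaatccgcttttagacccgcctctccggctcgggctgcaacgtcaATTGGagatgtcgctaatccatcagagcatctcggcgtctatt
Srsf7: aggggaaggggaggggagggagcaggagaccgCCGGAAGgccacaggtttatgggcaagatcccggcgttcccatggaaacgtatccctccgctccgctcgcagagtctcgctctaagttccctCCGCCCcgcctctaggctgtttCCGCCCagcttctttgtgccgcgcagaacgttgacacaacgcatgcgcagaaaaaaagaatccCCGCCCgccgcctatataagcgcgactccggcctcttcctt

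Both directions included GC-rich promoters with GC boxes and promoters without them. Sf3b6 had 2 GC boxes and 2 ETS cores, with a box and a core adjoining, Prpf38a had 1 CCAAT box and 1 GC box, and no motif was found in the Snrpe window. Hnrnpd had 3 GC boxes, 1 ETS core and 1 E-box at 74.4% GC, Srsf7 had 3 GC boxes and 1 ETS core at 61.6% GC, and Prpf8 had 2 CCAAT boxes at 49.6% GC. Over the 44 members with an entry near their start, of 57 of 65 with any entry, 63.6% held a GC box, 47.7% a CCAAT box and 34.1% an ETS core. Over all 32851 windows of the same length in the table, coding and noncoding genes together, these shares were 32.7%, 33.9% and 6.91%. The E-box stood in 9.09% of the members and 6.02% of all windows, the cyclic AMP response element in 4.55% and 1.55%, and the NRF1 core in 0% and 0.78%. Median GC content was 58.8% in the members and 52.4% in all windows. Of the called members among these 44, an ETS core stood in 2 of the 5 that rose and in 4 of the 11 that fell, and a GC box in 3 and 5 of them. These are matches of letters and were not compared by a test.

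Among the hnRNPs, 1 of 20 members rose and 3 fell in EOD against AL (20%, against 35.2% of all genes). The family median log2 fold change was -0.01. Gene positions here and below are mm10, from the count table. Hnrnpd (chr5:99958426-99978938), also known as AUF1, binds AU-rich elements and directs the decay of mRNAs that carry them. Its level was 50.1, 48.7, 43.1, 39.1 and 36.9 CPM in AL replicates 1 to 5, 39.7, 36.4, 38.8, 36.8 and 34.7 CPM in IF16 and 15.1, 17.5, 14.4, 19.3 and 32 CPM in EOD. All EOD libraries lay below all AL and IF16 libraries, and EOD replicate 5 was the nearest to them. The mean was 19.6 ± 7.18 CPM in EOD and 43.6 ± 5.82 CPM in AL (SD, n = 5), 2.22-fold lower in EOD (log2 fold change -1.15 ± 0.17 SE, adjusted p = 0.000106), the largest change among the 63 tested members. Against IF16 it was 1.90-fold lower (log2 fold change -0.92 ± 0.17 SE, adjusted p = 0.00184).

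Hnrnpc (chr14:52073380-52104028), which binds uridine tracts in nascent RNA, moved the other way. It was at 65, 62.3, 67.3, 77.5 and 76.4 CPM in AL, 61.4, 70.8, 74, 68.9 and 68.9 CPM in IF16 and 98.3, 95.7, 114, 111 and 89.8 CPM in EOD. Every EOD library exceeded every AL and IF16 library. The rise was 1.46-fold against AL (log2 fold change 0.55 ± 0.10 SE, adjusted p = 0.000379) and 1.48-fold against IF16 (log2 fold change 0.57 ± 0.10 SE, adjusted p = 0.000886). Hnrnpa2b1 and Hnrnpa3, relatives of the splicing repressor Hnrnpa1, fell less. Hnrnpa2b1 was at 262, 267, 263, 359.8 and 283 CPM in AL and 209, 249.6, 193, 227 and 264 CPM in EOD, with ranges that overlapped (log2 fold change -0.33 ± 0.11 SE, adjusted p = 0.0259). Hnrnpa3 was at 129, 95.6, 125, 137 and 122 CPM in AL and 76.8, 103, 60.7, 78.5 and 117 CPM in EOD, also overlapping (log2 fold change -0.48 ± 0.15 SE, adjusted p = 0.0191). With AL replicates 4 and 5 left out, the change was -0.18 on the log2 scale for Hnrnpa2b1 (adjusted p = 0.226) and -0.39 for Hnrnpa3 (adjusted p = 0.0985). The 16 hnRNPs not called lay between -0.28 and 0.29, Hnrnpk among them at 138 to 207 CPM in AL and 149.6 to 179 CPM in EOD.

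**Figure D4:**
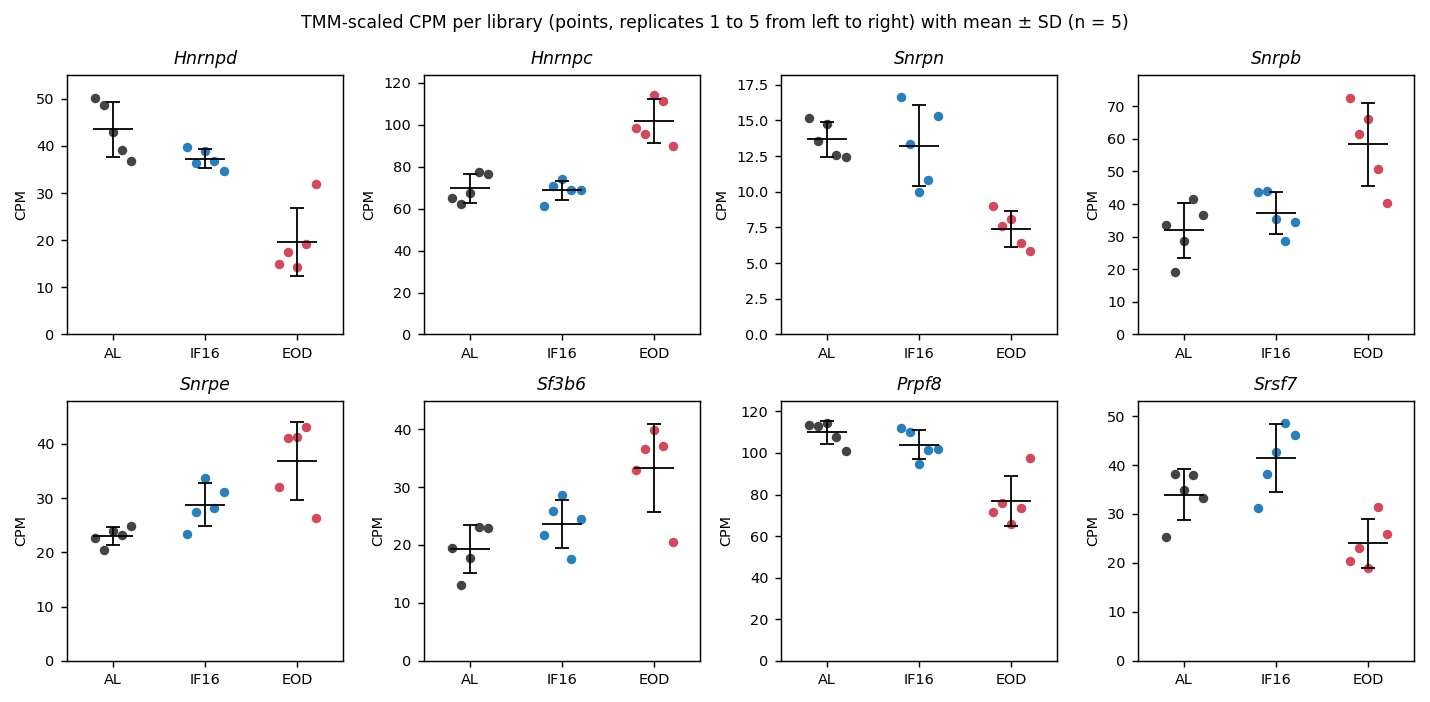
CPM (y axis) of 8 called members in each library (points) by feeding group (x axis), with the mean and SD of each group of 5. Hnrnpd, Snrpn and Prpf8 in EOD lie below every AL library, and Hnrnpc and Snrpe in EOD lie above every AL library.

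Of the snRNP proteins, 3 of 11 tested rose and 2 fell in EOD (45.5%, against 35.2% of all genes), with a median of 0.20. Snrpb (chr2:130171414-130179403) encodes the Sm protein B (SmB) of the ring. It was at 33.5, 19.3, 28.7, 41.4 and 36.8 CPM in AL, 43.7, 44, 35.5, 28.6 and 34.6 CPM in IF16 and 72.6, 61.4, 66.2, 50.9 and 40.5 CPM in EOD. The highest AL library and the lowest EOD library overlapped narrowly, and the other EOD libraries were above all AL libraries. The mean was 58.3 ± 12.7 CPM in EOD and 31.9 ± 8.46 CPM in AL, 1.83-fold higher in EOD (log2 fold change 0.87 ± 0.19 SE, adjusted p = 0.00226). Snrpn (chr7:59974149-60140219), an imprinted gene whose product SmN replaces SmB in neurons, fell. Its level was 15.1, 13.5, 14.7, 12.6 and 12.5 CPM in AL, 16.6, 13.3, 9.99, 10.8 and 15.3 CPM in IF16 and 9, 7.58, 8.07, 6.40 and 5.83 CPM in EOD, so that EOD lay wholly below both other groups. The change was 1.85-fold against AL (log2 fold change -0.89 ± 0.15 SE, adjusted p = 0.000264) and 1.79-fold against IF16 (log2 fold change -0.84 ± 0.15 SE, adjusted p = 0.00131). Snrpb and Snrpn are close paralogs, and a processed transcript on the strand of Snrpn overlaps it with 58.6% as many counts, so the division of reads between these genes is uncertain.

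Snrpe (chr1:133603871-133610291), another ring protein and the gene whose promoter window held no motif, was at 22.6, 20.5, 24, 23.2 and 24.8 CPM in AL, 23.4, 27.5, 33.8, 28.2 and 31.2 CPM in IF16 and 32.1, 41.1, 41.3, 43.2 and 26.4 CPM in EOD. The EOD libraries were all above the AL libraries, with IF16 between and overlapping both. The rise against AL was 1.60-fold (log2 fold change 0.68 ± 0.13 SE, adjusted p = 0.000835). The partner proteins A′ and B″ of the U2 snRNP moved in opposite directions. Snrpa1 (chr7:66060299-66074582), which encodes A′, was at 15.5, 17.6, 16.8, 17.5 and 17.7 CPM in AL and 12.9, 13.7, 12.5, 13.7 and 14 CPM in EOD, lower in every EOD library (log2 fold change -0.35 ± 0.08 SE, adjusted p = 0.00372). Snrpb2 (chr2:143063039-143072853), which encodes B″ and is named after its values were seen, was at 11.9, 6.60, 9.99, 12 and 11.8 CPM in AL and 14.7, 14.5, 15.8, 16 and 12.4 CPM in EOD, higher in every EOD library (log2 fold change 0.49 ± 0.14 SE, adjusted p = 0.0124). Snrpd2, the most abundant member by FPKM, overlapped between all groups, at 61 to 80.6 CPM in AL, 54.6 to 92.7 CPM in IF16 and 51.8 to 78 CPM in EOD. Snrpg, also of the ring, was not called (log2 fold change 0.36 ± 0.14 SE, adjusted p = 0.0526).

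In the Sf3 family, 1 of 9 members rose and 3 fell (44.4%, against 35.2% of all genes), with a median of -0.20. Sf3b6 (chr12:4817608-4827658), the small subunit that contacts the branch point adenosine, was at 19.4, 13.2, 17.7, 23.1 and 23 CPM in AL, 21.8, 25.8, 28.6, 17.5 and 24.4 CPM in IF16 and 32.9, 36.5, 39.8, 37 and 20.5 CPM in EOD. EOD replicates 1 to 4 were above every other library, and EOD replicate 5 lay within the AL range. The rise was 1.73-fold against AL (log2 fold change 0.79 ± 0.18 SE, adjusted p = 0.00303), whereas the difference from IF16 was not called (log2 fold change 0.50 ± 0.18 SE, adjusted p = 0.0683). With AL replicates 4 and 5 left out, the rise against AL reached 1.02 on the log2 scale. Sf3b1 (chr1:54985169-55027481), the scaffold on which Sf3b6 sits, was at 76.1, 109, 98.3, 148 and 106 CPM in AL and 62.9, 73.3, 71.2, 91.7 and 98.4 CPM in EOD (log2 fold change -0.43 ± 0.15 SE, adjusted p = 0.0363). Its highest AL library was AL replicate 4, and with AL replicates 4 and 5 left out its change was -0.22 on the log2 scale (adjusted p = 0.285).

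Sf3a2 (chr10:80798198-80804924) and Sf3a3 (chr4:124714776-124732460) belong to the SF3a trimer, which docks SF3b onto the U2 snRNP. Sf3a2 was at 19.5, 24.9, 20.9, 19.5 and 20.1 CPM in AL and 14.4, 14.4, 11.8, 14.6 and 19.97 CPM in EOD, with EOD replicates 1 to 4 below all AL libraries (log2 fold change -0.48 ± 0.14 SE, adjusted p = 0.012). The opposite strand at Sf3a2 holds Plekhj1, which had 140% as many counts and a log2 fold change of 0.43 (adjusted p = 0.00311), and the sources used here do not say whether counting used the strand. Sf3a3 was at 13.8, 12.5, 15, 13.9 and 14.6 CPM in AL and 10.8, 12.8, 9.99, 12.7 and 11.6 CPM in EOD (log2 fold change -0.27 ± 0.10 SE, adjusted p = 0.0358), and it lost its call under 12 of 25 alternatives. The other 5 members of the family were not called, at log2 fold changes of -0.27 to -0.0010.

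Among the Prpf genes, 1 of 13 rose and 2 fell (23.1%, against 35.2% of all genes), with a median of -0.22. Prpf8 (chr11:75486816-75509449) encodes the large protein that cradles the catalytic RNA core of the spliceosome. It was at 113, 113, 114, 108 and 101 CPM in AL, 112, 109.9, 94.5, 102 and 102 CPM in IF16 and 71.8, 76.1, 65.7, 73.3 and 97.4 CPM in EOD. All EOD libraries were below all AL libraries, and EOD replicate 5 stood nearest to them. The fall was 1.43-fold against AL (log2 fold change -0.52 ± 0.10 SE, adjusted p = 0.000919) and 1.35-fold against IF16 (log2 fold change -0.44 ± 0.10 SE, adjusted p = 0.00779). Prpf38a (chr4:108563172-108579336), which joins the spliceosome before its activation, was the lowest Prpf gene and rose. Its level was 3.81, 2.73, 2.61, 4.15 and 3.65 CPM in AL, 4.39, 3.66, 3.65, 1.71 and 3.08 CPM in IF16 and 6.68, 5.51, 7.50, 5.47 and 3.79 CPM in EOD, with EOD replicate 5 inside the range of the other groups. The rise was 1.71-fold against AL (log2 fold change 0.77 ± 0.23 SE, adjusted p = 0.014). Prpf19 (chr19:10895231-10909559), the ubiquitin ligase of the complex named after it, was at 96, 82.3, 101, 102 and 105 CPM in AL and 85, 75.3, 72.7, 84 and 85.3 CPM in EOD, a 1.21-fold fall (log2 fold change -0.27 ± 0.09 SE, adjusted p = 0.0265) that was not called when AL replicates 4 and 5 were left out (-0.18 on the log2 scale, adjusted p = 0.209).

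Of the Srsf genes, 1 of 10 tested rose and 2 fell (30%, against 35.2% of all genes), with a median of -0.18. Srsf10 (chr4:135855747-135869908), which represses splicing when dephosphorylated, was at 25.1, 28, 24.7, 30.2 and 26.2 CPM in AL, 23.9, 29.4, 31.7, 32 and 30.03 CPM in IF16 and 35.6, 36.7, 33.8, 35.9 and 33.8 CPM in EOD. The EOD libraries varied little and were all above those of both other groups (log2 fold change 0.39 ± 0.09 SE, adjusted p = 0.00372 against AL; adjusted p = 0.0647 against IF16, not called). Srsf3 (chr17:29032673-29043366) and Srsf7 (chr17:80200089-80207305) are shuttling SR proteins that also serve as adaptors for mRNA export. Srsf3 was at 51.1, 49.8, 46.4, 43 and 39.7 CPM in AL, 46.9, 48.9, 44.4, 43.8 and 44.4 CPM in IF16 and 43.6, 35.8, 27.6, 36.3 and 31.4 CPM in EOD, a 1.32-fold fall against AL (log2 fold change -0.40 ± 0.11 SE, adjusted p = 0.0107). Its EOD libraries overlapped AL but not IF16. Srsf7 was at 25.4, 38.1, 34.9, 38 and 33.2 CPM in AL, 31.2, 38.2, 42.7, 48.6 and 46.2 CPM in IF16 and 20.4, 23, 19.1, 31.5 and 26 CPM in EOD. It fell 1.41-fold against AL (log2 fold change -0.50 ± 0.15 SE, adjusted p = 0.0162), a call lost without AL replicates 4 and 5 (adjusted p = 0.0805), and 1.73-fold against IF16 (log2 fold change -0.79 ± 0.15 SE, adjusted p = 0.00224). Srsf5, the most abundant Srsf gene by FPKM, ranged over 135 to 254 CPM in AL, 153 to 174 CPM in IF16 and 103 to 238 CPM in EOD and was not called.

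**Figure D5:**
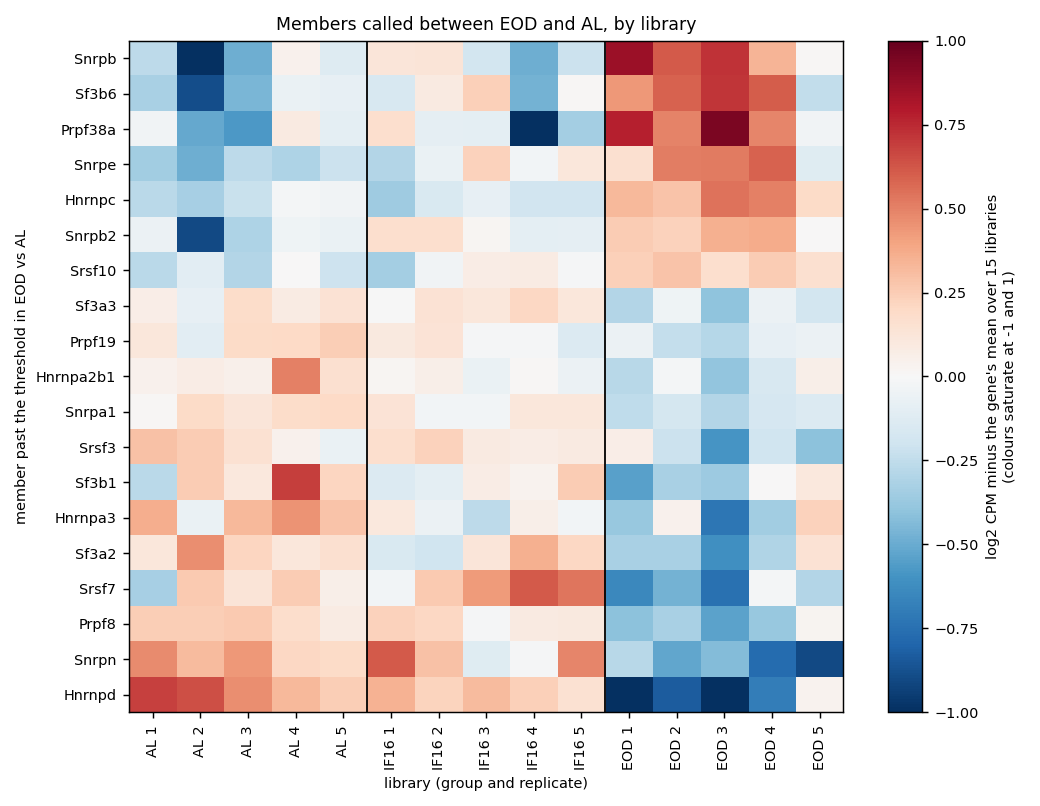
Log2 CPM of the called members in each of the 15 libraries, centred on the mean of each gene (red above, blue below, colours saturating at -1 and 1). In 15 of the 19 rows EOD replicate 5, the last column, is the EOD library nearest to the AL mean.

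EOD and IF16 differ in schedule as well as in length of fast, and their comparison cannot tell these apart. In EOD against IF16, 10 of 63 members (15.9%) changed, 3 higher and 7 lower, with 16.1% of all genes called, 7.96% higher and 8.15% lower. Higher were Prpf38a (log2 fold change 0.81 ± 0.23 SE, adjusted p = 0.0212), Snrpb (log2 fold change 0.65 ± 0.19 SE, adjusted p = 0.0286) and Hnrnpc. Lower were Hnrnpd, Snrpn, Srsf7, Prpf8, Srsf3 (log2 fold change -0.39 ± 0.11 SE, adjusted p = 0.0253), Sf3a3 (log2 fold change -0.30 ± 0.10 SE, adjusted p = 0.0378) and Snrpa1 (log2 fold change -0.27 ± 0.08 SE, adjusted p = 0.034). This comparison uses the same EOD libraries as EOD against AL, so the resemblance between the lists is not separate evidence. In 9 members (14.3%) the EOD and IF16 libraries did not overlap, against 10.9% of all genes. Hnrnpc, Hnrnpd, Prpf8, Snrpn and Srsf7 kept their calls under all 25 alternatives, whereas Prpf38a lost its call under 3, Srsf3 under 5, Snrpb under 8, Sf3a3 under 14 and Snrpa1 under 16. Without EOD replicate 3 there were 5 called members, with 11.1% of all genes called, and Prpf38a, Sf3a3, Snrpa1, Snrpb and Srsf3 were lost. Without EOD replicate 5 there were 15 called members, 8 higher and 7 lower, with 24.2% of all genes called. Without AL replicates 4 and 5 there were 8 called members, with 16.8% of all genes called, and Sf3a3 and Snrpa1 were lost. That pair is in neither group compared and enters through the filter, the scaling and the shared spread.

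Other genes of the splicing pathway were taken from lists drawn up by function. In EOD against AL the background was 35.2% of all genes tested, 17.6% in each direction, and no list was compared with it by a test. Of 46 tested snRNP and spliceosome proteins outside the name rule, 4 rose and 13 fell in EOD against AL (37.0%, median -0.13). Ddx46, the helicase that remodels the U2 snRNP at the branch point, fell (log2 fold change -0.84 ± 0.14 SE, adjusted p = 0.000244), as did Lsm8 of the U6 snRNA ring (log2 fold change -0.82 ± 0.14 SE, adjusted p = 3e-04) and Eftud2, the GTPase partner of Prpf8 (log2 fold change -0.47 ± 0.08 SE, adjusted p = 0.000316). Nhp2l1, a protein of the U4 snRNP, rose (log2 fold change 0.51 ± 0.11 SE, adjusted p = 0.00219). Of 13 tested proteins that assemble snRNPs, 3 rose and none fell (23.1%, median 0.0049). They were Gemin2, which holds the Sm proteins in the SMN complex (log2 fold change 0.80 ± 0.12 SE, adjusted p = 8.38e-05), Strap (log2 fold change 0.46 ± 0.11 SE, adjusted p = 0.00487) and Clns1a, a chaperone of Sm proteins (log2 fold change 0.41 ± 0.12 SE, adjusted p = 0.015).

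Among 23 SR protein kinases and SR-related cofactors, 3 rose and 5 fell (34.8%, median -0.13). Luc7l2, a cofactor of the U1 snRNP (log2 fold change -0.92 ± 0.23 SE, adjusted p = 0.00605), Rbm25 (log2 fold change -0.54 ± 0.14 SE, adjusted p = 0.00571) and the SR protein kinase Srpk2 (log2 fold change -0.51 ± 0.13 SE, adjusted p = 0.00653) fell, and the kinase Clk3 rose (log2 fold change 0.46 ± 0.12 SE, adjusted p = 0.0072). Rbm25 had an adjusted p of 0.0546 without AL replicates 4 and 5. Among 39 other RNA-binding regulators of splicing, 7 rose and 5 fell (30.8%, median 0.04). Mbnl2, a regulator of developmental splicing switches, fell (log2 fold change -0.79 ± 0.14 SE, adjusted p = 0.000427), and the cold-inducible protein Rbm3 (log2 fold change 0.75 ± 0.11 SE, adjusted p = 5.86e-05) and the poly-C binder Pcbp2 (log2 fold change 0.72 ± 0.12 SE, adjusted p = 0.000204) rose. The background in this comparison was 35.2% of all genes.

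Against IF16, where 16.1% of all genes were called, 1 of the 46 spliceosome proteins rose in EOD and 6 fell, among them Ddx46 (-0.81, adjusted p = 0.00106), Lsm8 (-0.67, adjusted p = 0.00381), Eftud2 (-0.34, adjusted p = 0.00814) and Lsm6 (-0.44, adjusted p = 0.00831), in log2 fold change. Of the assembly proteins, only Gemin2 was called (0.40, adjusted p = 0.0276). Of the SR cofactors, 1 rose and 2 fell, namely Tnpo3, the importin of SR proteins (0.64, adjusted p = 0.0335), Luc7l2 (-0.74, adjusted p = 0.0381) and Rbm25 (-0.50, adjusted p = 0.0192). Each of these 4 calls, Gemin2 included, was lost when certain single libraries were left out. Luc7l2 lost its call under 9 of 25 alternatives, 7 of them without 1 library (IF16 replicates 3 to 5 or EOD replicates 1 to 4), with an adjusted p of up to 0.101. Tnpo3 lost it under 8, 7 of them without 1 library (IF16 replicates 2 to 5 or EOD replicates 1 to 3), with an adjusted p of up to 0.107. Gemin2 lost it without IF16 replicate 4 or 5 or EOD replicate 3 or 4 (up to 0.0685), and Rbm25 under 3 alternatives, among them without EOD replicate 1 or 3 (up to 0.0606). Of the 39 other regulators 6 rose and 3 fell, among them Esrp2, an epithelial splicing regulator (0.47, adjusted p = 0.00609), Rbm3 (0.45, adjusted p = 0.00841) and Pcbp2 (0.47, adjusted p = 0.012). In IF16 against AL, edgeR called 0 of the 121 tested genes of these 4 lists, with 13 at an unadjusted p below 0.05, limma called 0 and DESeq2 called 3 (Esrp2, Gemin2 and Mbnl2).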

How the data were processed

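Poly-A RNA of mouse liver was sequenced in 15 libraries, 5 per feeding group. The deposited table holds raw counts per gene and FPKM made by the authors, per the file headers; per the submitters' processing notes, STAR 2.5, HTSeq 0.6.1, DESeq2 and mm10 were used, and no strand setting is given in these sources. Genes were kept by edgeR's filterByExpr with a minimum count of 10, leaving 13837 of 35275, scaled by TMM and tested with edgeR 4.0.16 (R 4.3.3) in a robust quasi-likelihood fit over all 15 libraries, with Benjamini-Hochberg adjustment over all genes tested and a threshold of 0.05. CPM values are TMM-scaled, while levels between genes use the deposited FPKM. The standard error of a log2 fold change is its size over the square root of F. Fewer reads mean less precision: 3 counts equal 0.0786 to 0.107 CPM. Each pair of replicates differed by more than sampling noise, with 25.1 to 221 as the chi-square over its degrees of freedom. DESeq2 1.42.0, limma 3.58.1, other filters and left-out libraries were alternatives. Named genes are, per comparison and family, up to 4 called members with the smallest p and the member with the largest change; per family, the 2 highest and 1 lowest by FPKM; and up to 4 called genes of each related list. A gene of the last list that this rule names is not reported here. The members and lists were chosen with earlier results of these data known.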

Additional observations from a re-analysis of the deposited data

Results flagged for a closer look

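In 4 of 87 groups of 5 libraries examined, over 29 named members, 1 library lay far from the other 4 by Dixon's criterion at 95%, where chance alone marks about 1 group in 20. Hnrnpa2b1 was at 360 CPM in AL replicate 4, against 262 to 283 CPM in the other AL libraries. Hnrnpd was at 32 CPM in EOD replicate 5, against 14.4 to 19.3 CPM in the other EOD libraries, and its log2 fold change against AL was -1.37 without that library. Sf3a2 was at 24.9 CPM in AL replicate 2, against 19.5 to 20.9 CPM in the others, and Srsf2 was at 69.8 CPM in the same library, against 47.7 to 53 CPM.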

How the results depend on the processing

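The 62 results for single genes were recomputed under 25 alternatives. Of these 1550 values, 1435 kept direction and side of the threshold, 112 kept direction and lost the call, 3 gained one (Sf3b6 in EOD against IF16) and none turned direction. Leaving out each library in turn gave 13 to 30 called members in EOD against AL, 5 to 15 in EOD against IF16 and 0 to 0 in IF16 against AL, and 3913 to 5726, 1418 to 3383 and 241 to 619 called genes of all those tested. The lowest and highest member counts came without EOD replicate 3 and without EOD replicate 5. In IF16 against AL, 484 genes were called by edgeR, 937 by DESeq2 and 261 by limma on log2(FPKM + 1) without a filter; the cause was not tested. Libraries sharing a replicate number did not deviate together, with correlations of -0.13 to 0.22 and the own number best in 1 of 5 cases in each comparison. A replicate block gave 0, 21 and 7 called members in IF16 against AL, EOD against AL and EOD against IF16, and 492, 4809 and 2226 called genes. Sf3a3 in both comparisons with EOD, and Snrpa1 and Snrpb against IF16, had no call under the block. Snrpf and Srsf12 had too few reads to be tested.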

Other observations

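The spread between libraries of a group was compared for the members and for genes in general. The median SD of log2 CPM within a group was 0.19 for the members and 0.25 for all genes tested in AL, 0.15 and 0.22 in IF16, and 0.21 and 0.27 in EOD, with no test made and no match on expression level. Srsf9 was the steadiest member in IF16 and in EOD, with SDs of 0.041 and 0.040, whereas Snrpb was the most variable in AL (0.43), Prpf38a in IF16 (0.51) and Prpf40b in EOD (0.51). Of the members, 21 share part of their locus with another gene, and in 12 that gene had over 10% as many counts as the member. At Snrpd3, which was not called in EOD against AL, the gene on the other strand, Gucd1, had 184% as many counts and a log2 fold change of 0.92 (adjusted p = 1.49e-05).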
